A study of Mus musculus with 28 samples.

Results

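Untreated embryoid bodies (EBs) at day 6 of differentiation were profiled by RNA sequencing in 14 of the 28 libraries of the series. These 14 were taken by their labels as the control arm, which received no doxycycline (Dox), in 7 mouse embryonic stem cell (ESC) lines with 2 replicates each. The lines are named for their Dox-inducible transgenes: iAtoh1, iGfi1 and iPou4f3 carry 1 transcription factor, iG+A (Gfi1 and Atoh1), iG+P (Gfi1 and Pou4f3) and iP+A (Pou4f3 and Atoh1) carry 2, and iGPA carries all 3. Atoh1, Gfi1 and Pou4f3 are transcription factors of the sensory hair cells (HCs) of the inner ear. All lines derive from the parent A2loxCre, carry a Venus reporter with the transgenes, and were grown on feeder fibroblasts that were depleted by attachment to gelatin before EBs formed in serum medium without LIF, the cytokine that holds ESCs pluripotent. RNA came from whole, unsorted EBs. The other 14 libraries came from Venus+ cells of the same lines, sorted after 48 h in 2 µg/ml Dox, and are set beside the untreated values only where a line stood apart. The replicates of a line are different clones according to the series record, so that the error in each comparison is the spread between the 2 clones of a line, pooled over the lines, and p-values measure only that spread.

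EBs are aggregates of ESCs that, once LIF is withdrawn, leave the pluripotent state and pass through stages that resemble the epiblast and the primitive streak before derivatives of all germ layers form. In serum, mesoderm and its blood and endothelial derivatives form readily. The first red cells of the mouse embryo are primitive erythroid cells, which make embryonic globins (Hbb-bh1, Hbb-y, Hba-x) under the control of factors such as Gata1, Tal1 and Klf1, whereas white blood cells marked by Ptprc (CD45) appear later. An outer layer of primitive endoderm lays down a basement membrane of laminin and collagen IV around the EB.

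The deposited values are normalized read counts on a log2 scale for 19421 genes, and were turned back into normalized counts. These counts summed to 38.6 to 40.4 M per untreated library. In each, 17628 to 18074 genes were above 0, and the 10 most abundant genes took 3.92% to 4.76% of the counts. A level of at least 10 normalized counts in all 14 libraries was reached by 14401 genes. Levels of different genes are compared below only per kilobase (kb) of exon, as the percentile of the mean of the 14 libraries among 15920 genes with a usable exon length, whose median was 227 normalized counts per kb. Where a gene is described as listed at 0, a failed estimate cannot be told apart from absence, since Ints2, which encodes a subunit of the Integrator complex that cells in general use, was also listed at 0 in 8 of the 14 libraries.

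Embryonic globin was among the most abundant products of untreated EBs. Hbb-bh1, an embryonic β-like globin, had the highest mean of all genes per kb (282000 per kb), ahead of the elongation factor Eef1a1 (124000 per kb). It ranked first per kb in 12 of the 14 libraries and was at rank 2, behind Eef1a1, in replicate 1 of iG+P (74225 against 128093 per kb) and replicate 1 of iP+A (107269 against 132673 per kb). Hba-x, the embryonic ζ-globin, and Hba-a2, an α-globin, were at ranks 4 and 7 (77500 and 70500 per kb), and Hbb-y, the embryonic ε-like globin, lay at 10400 per kb. Of the adult β-globin genes, Hbb-b1 was at 154 to 588 normalized counts and Hbb-bs at 1676 to 12044, and reads of such near-identical genes may be split between copies by the counting. Of the 20 blood genes listed, 19 were at 100 normalized counts or more in all libraries. The exception was Ptprc, which ranged from 0 to 28 with a median of 2.14.

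The stretch of 250 bases before the start of the embryonic globin genes Hbb-y and Hba-x is shown because embryonic globins were so abundant and, as described below, differed among lines. Hbb-bh1 is named only. The sequences are RefSeq's (GRCm38.p6), each was found once in NCBIM37 (mm9), the build of the deposited data, and they read 5′ to 3′ toward the start. Capitals mark CACCC, the letters that Klf1 is known to bind, and TATAA. Hbb-y lies on the minus strand, at chr7:111001722-111001971:
Hbb-y: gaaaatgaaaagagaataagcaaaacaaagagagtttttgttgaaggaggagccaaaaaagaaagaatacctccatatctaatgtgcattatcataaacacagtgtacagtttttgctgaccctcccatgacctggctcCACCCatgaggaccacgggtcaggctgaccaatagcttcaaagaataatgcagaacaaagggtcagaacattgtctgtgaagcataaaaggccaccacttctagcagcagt
Hba-x lies on the plus strand, at chr11:32176350-32176599:
Hba-x: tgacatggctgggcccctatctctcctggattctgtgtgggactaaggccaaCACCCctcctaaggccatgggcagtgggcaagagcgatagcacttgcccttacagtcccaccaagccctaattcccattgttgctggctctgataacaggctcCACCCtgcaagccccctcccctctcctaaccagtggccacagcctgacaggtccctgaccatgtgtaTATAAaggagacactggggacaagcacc
Both strands were searched for CACCC and TATAA. They were also searched for AGATAA, which is only 1 form of the letters that Gata factors bind. CACCC was found once before Hbb-y, 111 bases from the start, and at 198 and 95 bases before Hba-x, which also held TATAA at 28 bases. AGATAA was in neither window. Other forms of the Gata site, such as TGATAA, were not searched for, so no lack of Gata sites is read from this. Of 32851 RefSeq promoters of this length, 52.0% held CACCC, 22.8% TATAA and 9.99% AGATAA, so that a match to CACCC is common.

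After the globins, the 20 genes of highest level per kb were mostly parts of the translation machinery and of metabolism. Rpl4, Rpl8, Rpl23, Rps15, Rplp1 and Fau encode ribosomal proteins, and Eef2 an elongation factor. Hsp90ab1 encodes a chaperone, Ptma prothymosin α, Fth1 the ferritin heavy chain, Igf2 the imprinted growth factor insulin-like growth factor 2 (36200 per kb), and Norad is a noncoding RNA, whose level per kb is uncertain because the exon length used for it was only 339 bases. For Ftl2-ps, Gm12070 and Eno1b the level is uncertain because they are near-identical copies of Ftl1, Gapdh and Eno1 and may hold their reads (Eno1b was at 43600 per kb and Eno1 itself at 106 per kb). Of these 20 genes, the globins aside, only Fth1 passed the test for a difference among lines that is described below (limma, adjusted p = 0.0225). It ranged from 21630 in replicate 1 of iP+A to 53270 in replicate 1 of iG+A. Abundant genes outside the 20 passed too, such as Mid1 (24300 per kb), at 94766 to 200295 normalized counts (limma, adjusted p = 0.00533).

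In all, 27 lists of marker genes were read, in the order of differentiation. The core pluripotency factors had not disappeared at day 6: all 10 listed genes were above 10 in all libraries, and the list's median lay at percentile 67.6. Pou5f1 (Oct4), the central factor of the pluripotent state, ranged from 257 to 4756 with a median of 1070. Sox2, its partner, ranged from 228 to 4276 with a median of 1244, and Nanog from 60.9 to 1596 with a median of 417. Lin28a, an RNA-binding protein that cells keep beyond the ESC stage, was the highest of the list (3630 per kb). Of the 13 naive pluripotency genes, 12 were above 10 in all libraries, with Dppa5a (2840 per kb) and Klf4 (1280 per kb) highest, and Nr0b1 was at 0 to 56.9. The epiblast gene Fgf5 varied from 1.16 to 518, Otx2 from 15.9 to 1127 and Dnmt3b, a de novo DNA methyltransferase, from 2021 to 7953.

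Primitive streak genes were present at low levels, with the list's median at percentile 28.8. T (Brachyury), the defining streak gene, ranged from 12.8 to 482 with a median of 82.9, and Eomes from 27.5 to 1371 with a median of 297. Cdx2, a caudal homeobox gene that is also used in trophoblast, was highest (558 per kb). Cdx1, Cdx4 and Wnt3a had medians of 6.66, 0.896 and 2.88. Among signals that pattern the germ layers, Bmp4 was at 3640 per kb (percentile 96.7), and Nodal and its antagonist Lefty1 were at 81.3 and 26.8 per kb. Over the libraries, Bmp4 ranged from 4738 to 13177 normalized counts, Nodal from 47.2 to 504 and Lefty1 from 3.93 to 248.

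Lateral plate and cardiac mesoderm genes were clearly present (percentile 52.7). Hand1, a factor of extraembryonic, lateral and cardiac mesoderm, reached percentile 99.6 (14700 per kb) and was at 15371 to 47582. Its relative Hand2 (2300 per kb) and the cardiac factor Tbx20 (1270 per kb) followed. Genes of the contractile apparatus of heart muscle were measurable in all libraries, with Tnnt2 (cardiac troponin T) at 299 to 2007, Myl7 (atrial myosin light chain) at 58 to 888 and Myh6 at 75 to 980. Nkx2-5 was at 8.12 to 121. Paraxial mesoderm was weakly marked (percentile 15.9): Tbx6, which marks presomitic mesoderm, was the highest per kb (119 per kb, 144 to 341 normalized counts), and Msgn1 and Ripply2 were under 10 in all libraries. All 13 endothelial genes were above 10 in all libraries (percentile 53.7), led by Tek (1160 per kb) and Kdr (904 per kb), which encode receptors of the angiopoietins and of VEGF.

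Endoderm was marked most by primitive and parietal genes (percentile 81.3). Sparc, a matrix protein of parietal endoderm that other cells also make, was at 9930 per kb. Col4a1 and Lamb1 were at 1680 and 1400 per kb. Gata6 and Gata4, factors of primitive endoderm that are not confined to it, were at 1120 and 893 per kb. Pdgfra was both in this list and in the lateral plate and cardiac list. Visceral endoderm genes were weak (percentile 23.9), with Afp at 6.1 to 59.4, Ttr at 200 to 1742 and Fga under 10 in most libraries (1.13 to 14.7). Definitive endoderm genes lay at percentile 30.3: Sox17 ranged from 119 to 1092 and Foxa2 from 31.3 to 611. Trh, which encodes thyrotropin-releasing hormone, was the highest of that list (647 per kb) and ranged from 38.3 to 5068.

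Neural and placodal derivatives were weakly marked. The neuron list had a median at percentile 12.6: Neurog1 and Neurog2, proneural factors, were under 10 in all libraries, Dcx was at 4.51 to 17.4, and Tubb3 at 91.4 to 312. In neural progenitors Ncam1 (299 per kb) and Irx3 (378 per kb) were highest, neither of which is confined to neural tissue, whereas Hes5, Rax and Pou3f2 were under 10 in all libraries and Pax6 was at 20.5 to 64.1. Of the surface ectoderm list, the simple epithelial keratins Krt18 and Krt8 were at 10600 and 5390 per kb, and Krt5 was under 10 in all libraries. Snai2, Msx1 and Msx2, which neural crest shares with mesoderm, were at 2030, 2020 and 1550 per kb, while Sox10, a defining crest factor, was at 5 to 18.4. Otic placode genes lay at percentile 15.8, with Pax8 under 10 in all libraries and Pax2 at 2.95 to 19.6.

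Most of the 10 HC genes listed were near or under 10, but 4 (Myo7a, Myo6, Cdh23 and Espn) were at 100 normalized counts or more in all libraries. The 6 members with a percentile had a median of 40.2. Lhx3 and Ocm were under 10 in all libraries, and Otof, Barhl1, Pvalb and Slc17a8 had medians of 7.4, 7.68, 7.11 and 2.97. The unconventional myosins Myo7a and Myo6, which many epithelia use, were at 1386 to 2331 and 1833 to 3126. Cdh23, a cadherin of the hair bundle, ranged from 10367 to 68416 normalized counts (percentile 92.8). Its 2 clones differed within lines, with 59297 and 20375 in iGfi1, and it did not pass the test among lines (adjusted p = 0.764). The trophoblast genes Prl3d1 and Prl2c2 were under 10 in all libraries, Prl3d1 listed at 0 in all of them, while Plac1 (874 to 2204) and Tead4 (516 to 971) were above 100 in all, and the list lay at percentile 15.1. The 2-cell-like genes were the lowest of the lists (percentile 8.58), with Zscan4c at 0 to 61.5.

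Genes of fibroblasts, the feeder cells depleted before EBs formed, were high (list median at percentile 79.8). Of the 18 listed, 13 were at 100 normalized counts or more in all libraries. Fn1 (fibronectin), Acta2 (smooth muscle actin) and Vim (vimentin) lay at 16500, 16900 and 13300 per kb. EB mesenchyme expresses these genes too. Some members were lower, with Dcn (decorin) at 41.5, Thy1 at 47.4 and S100a4 at 16.9 per kb, but Col1a2 was at 983 per kb. The part of feeder RNA in these levels was not tested. Cell cycle genes were high throughout, with Mki67 at 20391 to 39377 and Ccnb1 at 10210 to 11613. Immediate early genes were also high, with Egr1 at 6543 to 43915 and Fos at 6622 to 32186.

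**Figure D1:**
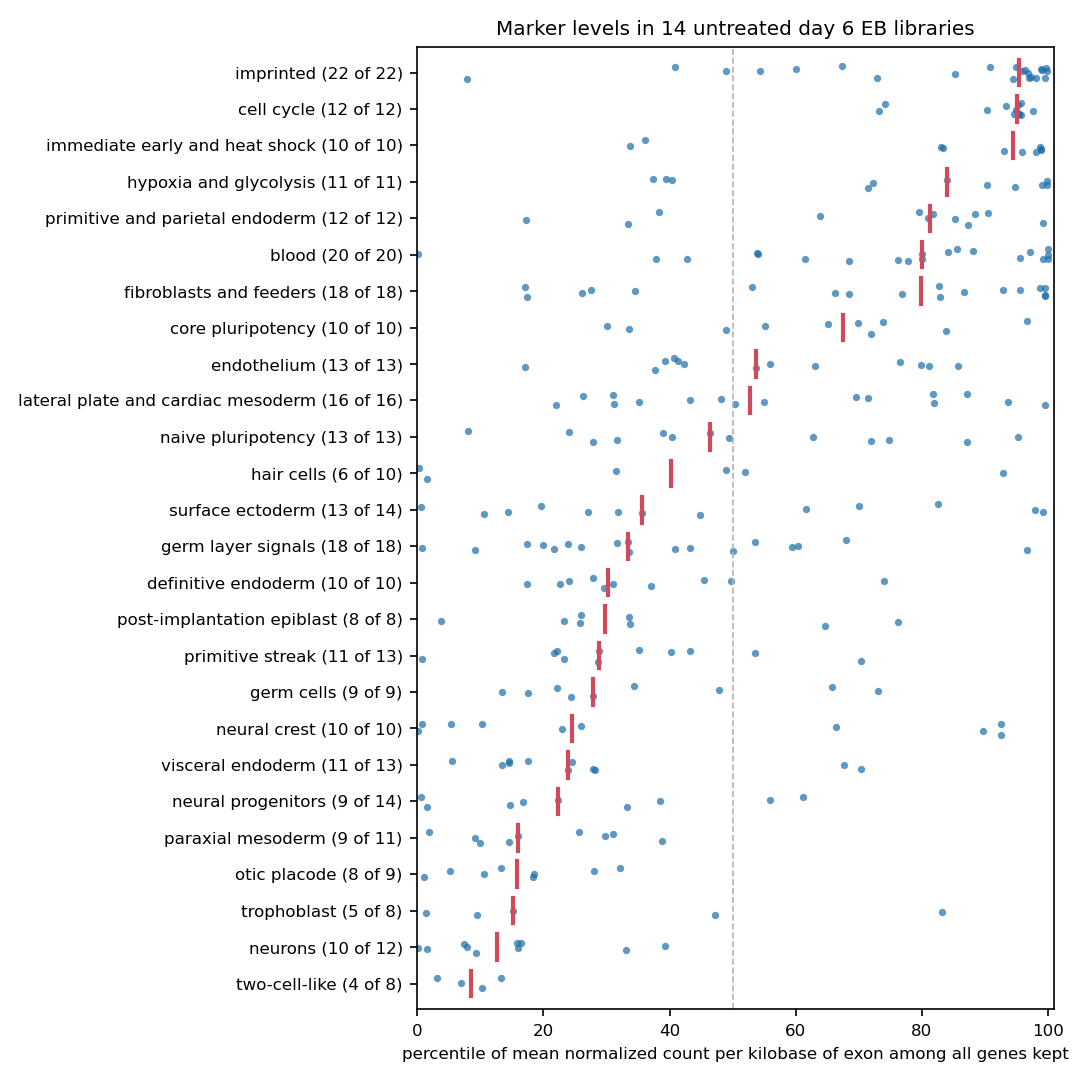
Each point is a marker gene placed by the percentile of its mean normalized count per kilobase of exon over the 14 untreated libraries, among the genes kept (x axis), grouped by list (y axis, with the number of members plotted of the number listed), and each bar is the median of the members plotted. Primitive and parietal endoderm (81.3), blood (80.0) and core pluripotency (67.6) lie to the right, neurons (12.6), otic placode (15.8) and paraxial mesoderm (15.9) to the left.

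Hox genes of all clusters were expressed. At least 10 normalized counts in all libraries were reached by 5 of 11 Hoxa, 9 of 10 Hoxb, 7 of 9 Hoxc and 7 of 9 Hoxd genes. Hoxb2 (570 to 2141), Hoxb3 (661 to 1643) and Hoxb4 (362 to 1406), genes of the anterior side of their cluster, were above that level. Hoxa4, Hoxa6, Hoxb13, Hoxc12 and Hoxd12 were under 10 in all libraries. Genes from the posterior end were measurable in some clusters, with Hoxa13 at 49.8 to 176 and Hoxd13 at 22 to 110. In the test among lines described next, 2 of 34 Hox genes kept passed (5.88%, against 4.47% of all genes). Hoxb8 (281 to 618, adjusted p = 0.0486) and Hoxd1 (203 to 935, adjusted p = 0.0329) had their highest values in iGPA (534 and 618) and in iG+P (935 and 595).

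The question of which genes differ among untreated lines beyond the spread of their clones was put to the 16299 genes that reached 10 normalized counts in 2 or more of these libraries. The moderated F-test of limma over the 7 lines passed 729 genes at an adjusted p under 0.05 (4.47%). Over all genes kept, a median of 64.9% of the variance lay between lines. With 7 lines of 2 libraries such a share is well above 0 even without a line effect, so it serves only as a background for other sets. The count of 729 rested on individual libraries. It was 150 without replicate 1 of iPou4f3, 171 without replicate 1 of iG+A, 196 and 208 without replicates 2 and 1 of iGfi1, 227 without replicate 1 of iP+A, 236 and 469 without replicates 1 and 2 of iG+P, 350 without replicate 2 of iPou4f3, 457 without replicate 2 of iGPA and 1310 without replicate 2 of iG+A. With a variance that did not depend on the level, it was 43.

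Blood genes differed most among the lines. Of the 20 blood genes, 15 passed the F-test (against 4.47% of all genes). A median of 87.9% of their variance lay between lines, against 64.9% over all genes kept. They included the erythroid and stem cell factors Gata1, Tal1, Lmo2, Klf1, Nfe2, Gfi1b and Runx1, the globins Hbb-bh1, Hba-x, Hba-a2 and Hbb-y, the heme enzyme Alas2, the erythropoietin receptor (Epor) and the integrin CD41 (Itga2b). Gata2, Spi1, Myb, Ptprc and Hbb-b1 did not pass. In these bulk samples, fewer blood cells and less RNA per blood cell cannot be told apart.

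Hbb-bh1 was at 319799 and 254475 normalized counts in iPou4f3, at 315910 and 238384 in iG+A and at 179528 and 299066 in iGPA. It was at 161462 and 114459 in iGfi1 and at 139296 and 121551 in iAtoh1. In iP+A it was at 65863 and 75927, and 45574 and 93797 were measured for iG+P (adjusted p = 0.0173). The lowest and highest libraries differed 7.02-fold, the ranges of iPou4f3, iG+A and iGPA overlapped one another, and those of iP+A and iG+P lay below all others.

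Gata1, the erythroid master regulator, was also high in iPou4f3 and iG+A and low in iP+A, with 5513 and 4046 in iPou4f3, 5460 and 4220 in iG+A, and 1285 and 1494 in iP+A (adjusted p = 0.00957). Its values in iG+P, 1975 and 2498, lay above those of iP+A and just under those of iGfi1 and iAtoh1, which ranged from 2514 to 3081. Tal1, which acts earlier in blood formation, was at 1845 and 2204 in iP+A and at 3778 or more in each of the other 12 libraries (adjusted p = 0.00729). The highest 2 libraries for Tal1 were the first replicates of iG+A (8157) and iPou4f3 (7944).

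Across the list, all 4 libraries of iG+P and iP+A lay below all 4 of iPou4f3 and iG+A for 16 of the 20 genes. This split of the lines was chosen after the values were seen and was not tested. The share of all genes that separate in this way was not computed, so nothing is read from the count. The 4 globin genes Hbb-bh1, Hba-x, Hba-a2 and Hbb-y together took between 0.176% of all counts in replicate 1 of iG+P and 1.46% in replicate 1 of iG+A. Leaving out each library in turn gave 7 to 16 blood genes past the test. The lowest counts were 7 without replicate 1 of iPou4f3, 8 without replicate 1 of iG+A and 10 without replicate 1 of iP+A or replicate 2 of iGfi1, and 7 genes, among them Alas2, Gata1, Itga2b, Lmo2, Nfe2 and Tal1, passed in each of the 14 fits. With the replicate number as a block, 11 blood genes passed. None passed when the variance was not allowed to depend on the level.

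Endothelial genes differed among lines too. Of 13, 5 passed the F-test (4.47% of all genes did): Cdh5 (VE-cadherin), Tie1, Esam, Erg and Plvap. Cdh5 was at 2550 and 2638 in iG+A, 2509 and 2061 in iPou4f3, 785 and 1016 in iP+A, and 807 and 1184 in iG+P (adjusted p = 0.00914), so that the former pair of lines did not overlap the latter. Kdr, an earlier marker of mesoderm that gives rise to blood and vessels, was at 4657 to 8055 and did not pass (adjusted p = 0.177), nor did Pecam1 (2469 to 3900) or Etv2 (116 to 341). Without replicate 1 of iP+A, iG+A or iPou4f3, 2 genes passed, Cdh5 and Tie1, and 3 passed without either replicate of iGfi1 or replicate 2 of iPou4f3. With the replicate number as a block, 3 passed (Cdh5, Tie1 and Esam), and with a variance independent of the level none did.

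Values for markers of other cells in the same libraries are given beside the blood genes. Of 18 fibroblast genes, Col1a2 and Postn passed the F-test (4.47% of all genes did), the latter with 57403 and 26001 in iPou4f3, 55403 and 25378 in iG+A and 23332 and 15335 in iP+A, but 2475 and 7726 in iG+P. Both were lost without replicate 1 of iAtoh1, iG+A or iG+P, or without either replicate of iGfi1, iPou4f3 or iP+A, and Postn was also lost without replicate 2 of iAtoh1. None of the 18 passed with a variance independent of the level, or with the replicate number as a block. The mean level of the fibroblast list, relative to the 14 libraries on the log2 scale, was 0.51 and 0.14 in iPou4f3, 0.37 and 0.30 in iG+A, 0.29 and -0.02 in iP+A, and -0.81 and -0.37 in iG+P. All 10 immediate early and heat shock genes were lowest in replicate 1 of iG+P, with a mean of -1.67 on this scale, and Mki67 was at 30875 to 39377 in iG+A and iPou4f3 against 20391 to 31943 elsewhere, an overlap through replicate 2 of iGPA. The part of any of these in the blood result was not tested.

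**Figure D2:**
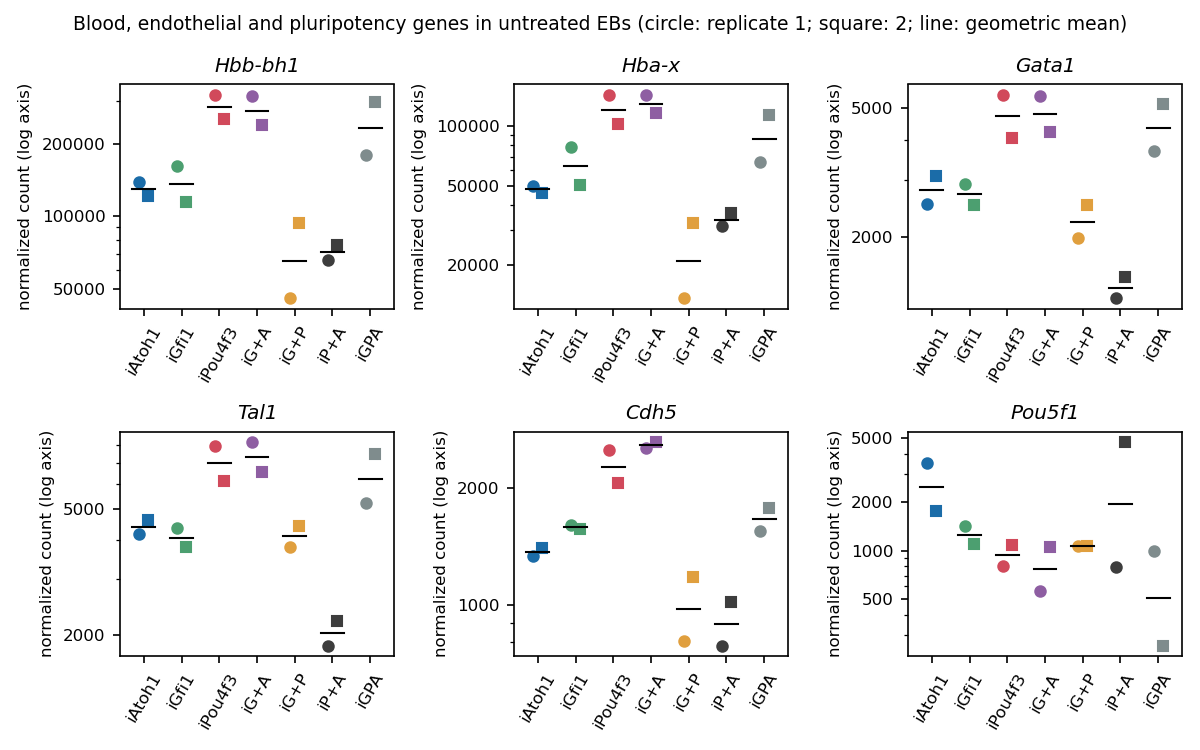
Normalized counts (y axis, log scale) of blood genes (Hbb-bh1, Hba-x, Gata1, Tal1), the endothelial gene Cdh5 and the pluripotency gene Pou5f1 in each untreated library by line (x axis), with the geometric mean of the 2 replicates as a bar. For Hbb-bh1 the 4 libraries of iG+P and iP+A (45574 to 93797) sit below the other 10, while for Pou5f1 the 2 replicates of iP+A (798 and 4756) are farther apart than most lines.

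The other germ layer lists passed the F-test about as often as all genes did, with 7 of 157 kept genes in 15 lists (4.46%, against 4.47%). The F-test passed 0 of 10 core pluripotency, 0 of 13 naive, 0 of 8 epiblast and 0 of 9 paraxial genes, 1 of 11 streak genes (Wnt3), 1 of 16 lateral and cardiac genes (Mef2c), 1 of 10 definitive endoderm genes (Hhex), 0 of 11 visceral genes, 1 of 12 primitive and parietal genes (Gata4), 1 of 10 neural progenitor genes (Zic1), 0 of 10 neuronal genes, 1 of 10 crest genes (Msx2), 1 of 13 surface ectoderm genes (Krt8), 0 of 8 otic and 0 of 6 HC genes that had been kept. Among the further lists, it passed 0 of 9 germ cell, 0 of 5 trophoblast and 0 of 11 hypoxia and glycolysis genes, 1 of 6 genes of the 2-cell-like list (Zscan4c), 1 of 18 germ layer signals (again Wnt3), 1 of 10 immediate early and heat shock genes (Hspa1b) and 1 of 12 cell cycle genes (Mki67). The adjusted p of these single genes lay between 0.0161 (Hhex) and 0.0484 (Wnt3), and each of them was lost when at least 1 library was left out. Hhex, which blood and endothelial progenitors also use, was at 380 and 391 in iP+A and at 541 to 976 elsewhere. Msx2 was at 8490 and 5529 in iG+P and at 1547 and 1895 in iG+A. Gata4 ranged from 2272 in replicate 2 of iGPA to 5698 in replicate 1 of iP+A.

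Pluripotency and streak genes instead varied between the clones of a line. Pou5f1 was at 798 and 4756 in the 2 clones of iP+A, a 5.96-fold gap, at 997 and 257 in iGPA, and at 3507 and 1776 in iAtoh1. Of the 13 naive genes, 11 were highest in replicate 2 of iP+A and 10 were lowest in replicate 2 of iGPA, and of the 10 core genes 6 and 7 were. T was at 482 and 49.8 in iAtoh1 and at 57 and 289 in iP+A, and Eomes at 27.8 and 427 in iG+A. Definitive endoderm genes were highest in replicate 1 of iAtoh1 for 8 of 10 members, among them Sox17 (1092 against 119 to 436 in the other 13), Foxa2 (611 against 31.3 to 205) and Trh (5068 against 38.3 to 1450). Replicate 1 of iG+A and replicate 2 of iGPA stood at the other end: streak genes were lowest in these 2 libraries for 5 members each of 11. These are single libraries, so no test bears on them.

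**Figure D3:**
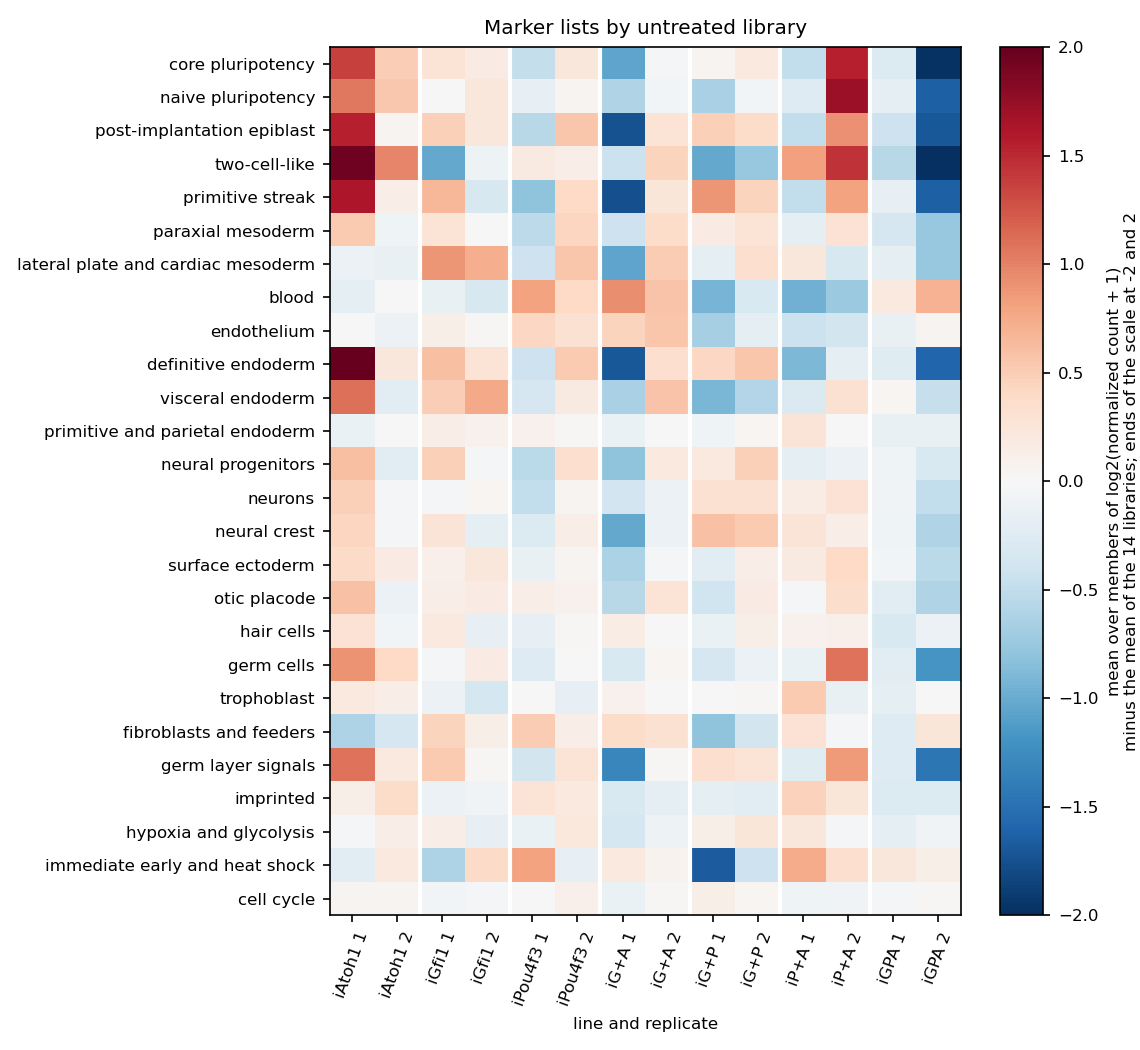
Each cell is the mean over a list's kept members of log2(normalized count + 1) minus the mean of the 14 libraries, for each list (rows) and untreated library (columns, by line and replicate). The pluripotency, epiblast, streak and definitive endoderm rows are red in replicate 1 of iAtoh1 (1.36, 1.06, 1.56, 1.62 and 2.1, from core pluripotency down) and blue in replicate 2 of iGPA (-1.97, -1.63, -1.7, -1.63 and -1.59), with replicate 2 of iP+A highest for pluripotency (1.55 and 1.71) and replicate 1 of iG+A lowest for the other rows (-1.74, -1.76 and -1.69), and differ within lines, while the blood row differs between lines.

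Most libraries did not lie nearest to the other clone of their line. By Euclidean distance over all genes kept, 4 of the 14 libraries had the other clone of their own line as nearest library: both of iGfi1, replicate 1 of iG+P and replicate 2 of iGPA. The first principal component of the 500 most variable genes took 26.6% of the variance and ran from replicate 1 of iAtoh1 (-26.0) and replicate 2 of iP+A (-19.7), at the end whose leading genes included Nnat, Cer1, Fgf5, Trh, Eomes and Otx2, to replicate 1 of iG+A (30.3) and replicate 2 of iGPA (29.1), at the end whose leading genes included Ints2, Ccl9, Cd33, Pik3cg and Ccl6. On the second (17.8%) the clones of iG+P had the highest scores (34.0 and 14.7) and replicate 2 of iP+A the lowest (-18.2). The median difference of a library from the mean of all 14 over the genes of a chromosome, for chromosomes 1 to 19 and X, lay between -0.098 (chromosome 7, replicate 1 of iG+A) and 0.079 (X, replicate 1 of iG+P) on the log2 scale.

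**Figure D4:**
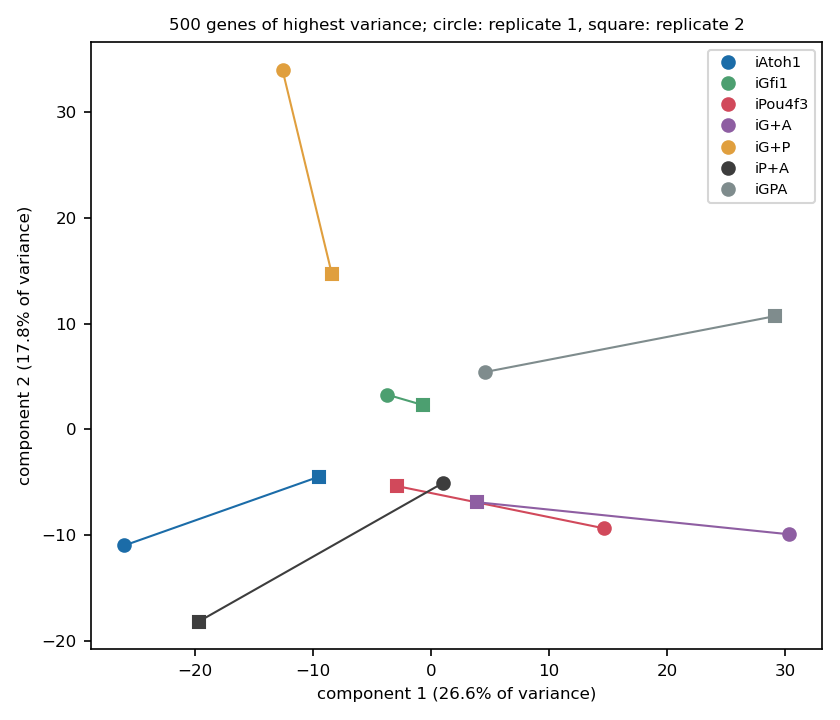
Untreated libraries by their scores on the first (x axis) and second (y axis) principal components over the 500 most variable genes, with a line joining the 2 replicates of each ESC line. The 2 libraries of iGfi1 lie close together, whereas those of iP+A, iG+A and iGPA are spread along the first component.

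The most variable genes were chosen by their variance over the 14 libraries among the 13391 with a mean of at least 50, so their spread is a description. For 9 of the 20, a line was split between its clones, with under 10 in one and at least 50 in the other. For example, Ints2 was at 669 and 0 in iG+A, Cd3d, a T-cell receptor subunit, at 0 and 137 in iG+P, and Ecsit at 239 and 0.919 in iP+A. Such gaps concerned 17 genes in all. Others of the 20 were high in single libraries: Brinp3 was at 1770 in replicate 1 of iPou4f3 and 691 in replicate 2 of iP+A against 12.2 to 42.1 in the other 12, and Mir1895 at 20095 in replicate 2 of iP+A against 178 to 286. Rpl34, a ribosomal protein gene that may share reads with copies, ranged from 0 to 502. Of the 20, 6 passed the F-test among lines (4.47% of all genes did): Nnat, Grb10, B3glct, Rex2, Ntng1 and Eif2s3y. Since the 20 were picked for their spread over the same libraries, nothing is read from that count. Clones of a line still differed for some of them, as Rex2 did with 46.8 and 195 in iP+A and Ntng1 with 223 and 68.8 in iGPA. The rest were Gm5797, the unnamed gene of Entrez ID 19370, Lrrc17, Mhrt, Fgf5, Gm12657, Cfap57 and Nrp.

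Imprinted genes, which are expressed from the copy of 1 parent, were among the most abundant (list median at percentile 95.4), and 5 of 22 passed the F-test among lines (4.47% of all genes did), with the smallest adjusted p for Nnat and Grb10. With the replicate number as a block, 4 passed (Peg10, Grb10, Nnat and Impact). With a variance independent of the level, 2 passed, Nnat and Grb10. Grb10 lies at chr11:11830511-11938686 (NCBIM37, minus strand) and encodes an adaptor that restrains insulin and insulin-like growth factor signalling. It was at 519 and 654 in iP+A and at 28580 to 45702 in the other 12 libraries. The difference of iP+A from the mean of the other lines was -5.96 on the log2 scale (SE 0.13, limma, adjusted p = 1.81e-09), and the call held in all alternatives and with each library left out. In the Dox libraries Grb10 was at 526 and 390 in iP+A and at 22828 to 48691 elsewhere. Of its neighbours within 400 kb, Fignl1 (2564 to 3906), Ddc (203 to 426) and Cobl (28.5 to 335) did not pass the F-test, and Ikzf1, described below, did.

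Nnat lies at chr2:157385814-157388258 (NCBIM37, plus strand), inside Blcap on the other strand, and encodes neuronatin, a small membrane proteolipid. It was at 2710 and 2244 in iAtoh1, 2022 and 1159 in iPou4f3 and 2476 and 1916 in iP+A, and it was listed at 0 in all 8 libraries of iGfi1, iG+A, iG+P and iGPA (F-test, adjusted p = 6.9e-09). The lines in which it was listed at 0 are those that carry the Gfi1 transgene, and absence cannot be told apart from a failed estimate. The pattern was the same in the Dox libraries, with 1089 to 6367 in the former lines and 0 in the latter. Blcap, its host gene, was at 2017 to 3440 in all libraries and did not pass (adjusted p = 0.145). The 250 bases before Nnat are shown, a choice made after its values were seen, with CG, the target of DNA methylation, in capitals (RefSeq, GRCm38.p6; chr2:157385564-157385813 in NCBIM37, plus strand):
Nnat: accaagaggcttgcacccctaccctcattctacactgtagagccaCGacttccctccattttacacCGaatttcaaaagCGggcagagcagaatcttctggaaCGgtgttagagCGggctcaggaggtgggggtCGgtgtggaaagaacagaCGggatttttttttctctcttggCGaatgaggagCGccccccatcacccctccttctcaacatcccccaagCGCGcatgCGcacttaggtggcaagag
The window holds 12 CG, against a median of 6 over all RefSeq promoters of this length, of which 66.5% have fewer.

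The other imprinted genes past the F-test, Peg10, Sgce and Impact, were all highest in iP+A, the line in which Grb10 was low. Peg10, a retrotransposon-derived gene needed in placenta, was at 195927 and 211000 in iP+A and at 84791 to 149547 elsewhere (log2 difference 0.98, SE 0.10, adjusted p = 0.00195). Sgce, its neighbour on chromosome 6, was at 7412 and 4659 against 2372 to 3374 (0.95, SE 0.14, adjusted p = 0.00632). Impact was at 9380 and 9510 against 4355 to 6701 (0.85, SE 0.08, adjusted p = 0.00139). Ppp1r9a, which follows Peg10 on the chromosome and was looked at for that reason, was lower in iP+A, at 1033 and 1296 against 1741 to 3693 (-1.27, SE 0.15, adjusted p = 0.00344). Peg10, Sgce and Impact were higher in iP+A among the Dox libraries too (log2 differences of 1.34, 1.20 and 1.33). Other imprinted genes, such as Igf2 (144715 to 237812), H19 (155 to 557), Meg3 (50730 to 105290) and Dlk1 (9140 to 33166), did not pass. Sgce did not pass in the fits without replicate 2 of iGPA, replicate 1 of iP+A, replicate 1 of iG+A and either replicate of iGfi1, iG+P or iPou4f3.

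B3glct, which encodes a glucosyltransferase of the endoplasmic reticulum, lies at chr5:150480805-150565174 (NCBIM37, plus strand). It was at 23.7 and 26.6 in iG+A and at 732 to 2078 in the other 12 libraries (log2 difference -5.69, SE 0.11, adjusted p = 3.97e-10). In Dox libraries it was at 13.9 and 20.2 in iG+A and at 742 to 2094 elsewhere. Its neighbours Tex26 (128 to 350) and Hsph1 (3452 to 5332) did not pass the F-test. Since the mean of the other lines includes iG+A, iGPA was also called higher for B3glct (2002 and 2078, log2 difference 1.65, adjusted p = 7.79e-05), although iGfi1 reached 1690 and 1850.

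Eif2s3y, a translation initiation factor subunit encoded on the Y chromosome, differed among lines in steps (F-test, adjusted p = 0.000125). It was at 721 and 696 in iG+P, 548 and 673 in iPou4f3, and 288 and 293 in iAtoh1. It was at 133 and 139 in iGPA, 97.7 and 86.4 in iP+A, 46 and 48 in iGfi1, and 18.6 and 40.3 in iG+A. No 2 neighbours in this order overlapped, although the clones of iG+A were farther apart than the step from iG+A to iGfi1, and iG+P and iPou4f3 differed little beyond their spread. Other Y-linked genes did not follow: Ddx3y was at 22 to 55.8, Uty at 25.8 to 49.4, and Kdm5d under 10. The X-linked counterpart Eif2s3x was at 11727 to 14247, and Xist, the RNA of the inactive X, at 39.3 to 194. In Dox libraries the order at the ends was kept, with iG+P higher than the other lines by 2.66 on the log2 scale and iG+A lower by 2.83.

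**Figure D5:**
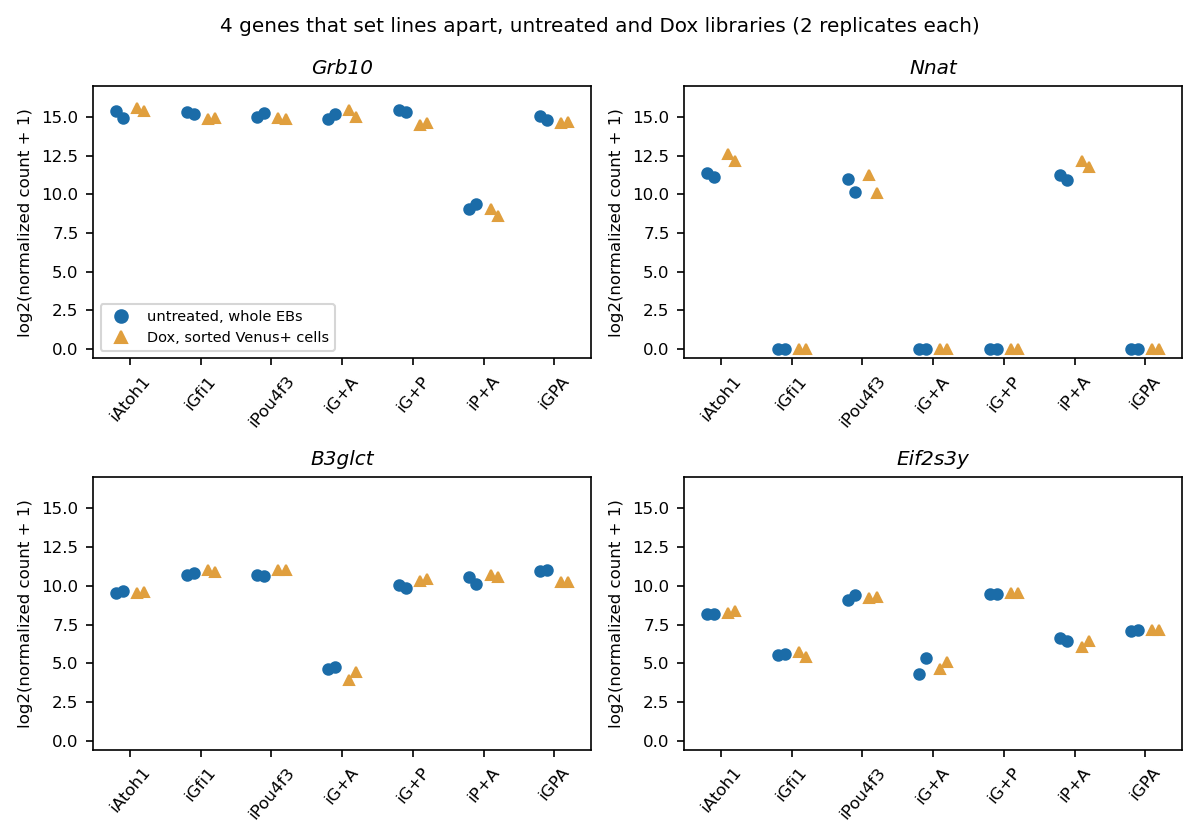
Levels of Grb10, Nnat, B3glct and Eif2s3y on the scale of log2(normalized count + 1) (y axis) in each line (x axis), with 2 untreated libraries (circles) and 2 Dox libraries (triangles) per line. The low libraries are those of iP+A for Grb10 (519 and 654 untreated), of the 4 lines with Gfi1 for Nnat (listed at 0) and of iG+A for B3glct (23.7 and 26.6 untreated), and the Dox libraries of the same line lie at similar levels.

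To ask which genes set a line apart, each line was compared with the mean of the other 6, and a gene was counted where the adjusted p was under 0.05, the log2 difference at least 1.5, and both libraries lay outside the range of the other 12. It held for 0 genes in iAtoh1 and iGfi1, 1 in iPou4f3 (0.00614% of genes tested), 2 in iGPA (0.0123%), 35 in iP+A (0.215%), 45 in iG+P (0.276%) and 19 in iG+A (0.117%), or 96 different genes (0.589%). These counts include 6 genes that fewer than 2 of the other 12 libraries had at 10 or more: Angpt2, Nxpe2 and Ccl6 in iG+A, and Phf11c, C2cd4b and Cidea in iP+A. They passed the filter only through the line in which they were high and so could enter the test only as different, and their calls carry no weight of their own. Without them, 16 genes remained for iG+A, 32 for iP+A and 90 in all. Where a library of the line itself is left out in what follows, the line is 1 library, which is assumed to vary like the clones of the other lines. A count of 0 does not show that a line has no genes of its own, since a line is represented by 2 clones.

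In iP+A, 14 genes were higher (0.0859%; 11 without those that passed the filter only through iP+A) and 21 lower (0.129%), the latter with blood genes that were in no list. Csf2rb, the shared β chain of several cytokine receptors, was at 375 and 349 in iP+A and at 488 to 3406 elsewhere (log2 difference -1.92, SE 0.27, adjusted p = 0.00565). Ikzf1 (Ikaros), a lymphoid and erythroid factor, was at 595 and 665 against 1236 to 3094 (-1.51, adjusted p = 0.00276), and it kept its call in 9 of 14 fits with a library left out. Pklr, the pyruvate kinase of red cells and liver, was at 31.2 and 43.3 against 61.7 to 227, and Hbq1b, a θ-globin, at 31.9 and 34.6 against 37.3 to 213. These 4 genes were chosen for mention after their values were seen. By the rule of the 5 largest differences, the genes lower in iP+A were Grb10, Ntng1, 1700013H16Rik, Snora30 and Tll1. Ntng1, a netrin-like membrane protein of axons, was at 3.13 and 2.63 in iP+A against 54.1 to 322 (-5.29, SE 0.47, adjusted p = 0.000836), but at 190 and 313 in the Dox libraries of iP+A, within the range of the other lines there.

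The 5 largest rises in iP+A were Phf11c (35.6 and 30.3 against 0 to 7.86), Ankrd1 (838 and 677 against 30.5 to 385), Fam71a (100 and 66 against 0 to 63.8), C2cd4b and Dclk3. Ankrd1, a stretch-responsive repressor of heart muscle, differed by 2.29 on the log2 scale (SE 0.45, adjusted p = 0.0177). Wnt4, a secreted signal (299 and 222 against 40.3 to 123), also rose and is named after its values were seen. Of 21 genes lower in iP+A, 16 had the same sign in its Dox libraries and 12 were called there (2.72% of all genes were called lower in iP+A Dox). Of 12 higher ones kept there, 10 had the same sign and 3 were called (4.14%). These 3 include Cidea, which passed the untreated filter only through iP+A and carries no weight. Among the lower genes, 2 went the other way. They were Golga7b and Mamld1, which were called higher with Dox. The count for iP+A was 19 without its replicate 1 and 99 without its replicate 2.

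In iG+A, Angpt2 (angiopoietin 2, a ligand of the Tek receptor) was at 118 and 119 against 0 to 5.99 in the other 12 libraries, 11 of which were listed at 0. In iG+A 12 genes were higher (0.0736%; 9 without those that passed the filter only through iG+A) and 7 lower (0.0429%). In the Dox libraries Angpt2 was listed at 0 in all lines. Its neighbour Mcph1 was at 2315 to 3622 in all untreated libraries. The other 4 of its 5 largest rises were Nxpe2 and 3 genes of myeloid cells, the chemokines Ccl9 (82.4 and 31.4 against 0 to 23.7) and Ccl6 (32.5 and 22.4 against 0 to 8.92) and the chemokine receptor Cxcr2 (44.1 and 25.8 against 0 to 14.7). Hbb-y was at 16036 and 16000 against 585 to 13405 (2.13, adjusted p = 0.0457). The 5 largest falls were B3glct, Nrp, Eif2s3y, Klk10 and Gm17762. B3glct and Eif2s3y kept their calls in all alternatives and with each library left out. Ccl9, Ccl6 and Cxcr2 lost theirs without replicate 1 of iG+A, among others, and Hbb-y kept its call in 5 of 14 fits. Of the 9 higher genes kept among Dox libraries, 7 had the same sign in iG+A and 3 were called (4.47% of all genes were), and of 7 lower ones 4 and 3 (2.01%). The higher genes of the same sign include Nxpe2, which was not called with Dox and passed the untreated filter only through iG+A. Clec14a was called the opposite way, at 39.4 and 46 untreated against 1.02 to 37.3 and at 1.06 and 0 with Dox against 0 to 44.3. The count for iG+A was 3 without either replicate of iGfi1 or replicate 2 of iPou4f3, 4 without replicate 1 of iG+P, 7 without replicate 1 of iG+A, 9 without replicate 1 of iGPA, 35 without replicate 1 of iPou4f3 and 202 without replicate 2 of iG+A.

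iG+P stood apart mostly by 42 lower genes (0.258%), against 3 higher ones (0.0184%), Eif2s3y, Kcnc4 (a potassium channel, 96.9 and 74.5 against 8.1 to 46.1) and Tcp11x2. The largest falls were Fam71a (0 and 1.01 against 9.05 to 100), Zscan4c (listed at 0 in both, against 3 to 61.5), Ccl9 (listed at 0 in both), Lsmem1 (3.07 and 23 against 54.7 to 172) and Klhl40 (1.02 and 3.01 against 7.81 to 60.1). Genes of platelets and blood progenitors were among the others: Gp1bb, part of the von Willebrand factor receptor, was at 10.3 and 9.05 against 24.4 to 59.5 (-1.99, SE 0.22, adjusted p = 0.0047), and Cd34, a marker of blood and endothelial progenitors, was at 97.1 and 171 against 190 to 752 (-1.52, SE 0.20, adjusted p = 0.00983). The stress response genes Atf3 (206 and 527 against 684 to 4517) and Ptgs2 (29.7 and 52.1 against 59.6 to 287) passed as well, Atf3 in 3 of 14 fits with a library left out. Replicate 1 of iG+P was lowest for all 10 immediate early and heat shock genes listed, Atf3 among them, and the part of this in the lower genes was not tested. Of 39 lower genes kept among Dox libraries, 35 had the same sign in iG+P and 17 were called (4.45% of all genes were), and of the 3 higher ones 1 was called, Eif2s3y (2.2%). Called the opposite way with Dox were Tcp11x2, higher untreated (139 and 81.2 against 17.9 to 49.9) and lower with Dox (1.96 and 1.08 against 0 to 70.9), and Cdcp2, lower untreated (8.18 and 6.01 against 10 to 72.3) and higher with Dox (1684 and 1280 against 22.7 to 1786).

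Gp1bb, Cd34, Atf3 and Ptgs2 were chosen for mention after their values were seen. The count for iG+P depended most on its own clones. It was 0 without replicate 1 of iG+P and 219 without replicate 2. It was 5 without replicate 1 of iG+A or of iPou4f3, 6 and 7 without replicates 2 and 1 of iGfi1, 16 without replicate 2 of iGPA, 23 without replicate 2 of iP+A and 72 without replicate 2 of iG+A. Gp1bb and Fam71a kept their calls in all alternatives and in 13 of 14 fits with a library left out.

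In iPou4f3 the gene set apart was Wee1, a kinase that delays entry into mitosis, at 147 and 195 against 420 to 935 (-1.91, SE 0.24, adjusted p = 0.0252). It kept its call in 8 of 14 fits with a library left out and in 7 of 10 other alternatives, and lost it, among others, with all 28 libraries and with a variance independent of the level. It was at 498 and 426 in the Dox libraries of iPou4f3, within the range of the other lines. In iGPA, Rex2, a zinc finger gene, was listed at 0 in both libraries and was at 46.8 to 195 in the other 12 (adjusted p = 7.08e-05). In Dox libraries it was at 110 and 7.07 in iGPA, listed at 0 in both libraries of iP+A, at 16.9 and 10.8 in iPou4f3, and at 84.1 to 306 in the other lines. The neighbouring zinc finger gene Zfp992 was at 5082 to 6088 in all untreated libraries.

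Whether the transgene a line carries left a trace without Dox was asked with the lines as replicates, 4 with a factor against 3 without. The limma fits called 0 genes for Atoh1 (337, or 2.07%, at an unadjusted p under 0.05), 1 lower gene for Gfi1 (0.00614%; 621, or 3.81%) and 0 for Pou4f3 (170, or 1.04%). That gene was Nnat (limma, adjusted p = 4.29e-07). Atoh1 itself was at 29.6 to 120 in the lines that carry it and at 3.02 to 13.3 in the others, without overlap. The difference was 3.23 on the log2 scale, with an exact two-sided permutation p of 0.0286, the smallest that the 35 splits of lines allow, and an adjusted p of 0.887 across all genes by limma. Gfi1 was at 57.9 to 119 in its 4 lines and at 27.3 to 68.6 in the others (0.87, exact p = 0.0286, adjusted p = 0.99). Pou4f3 was at 2.22 to 72.6 against 2.25 to 20.5 (0.95, exact p = 0.343). Reads of a transgene and of the gene in its own place cannot be told apart in these values.

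The replicate number was also tested. In a fit with the line and the replicate number, limma called 0 of 16299 genes between replicates 2 and 1, and 220 (1.35%) had an unadjusted p under 0.05. The largest differences were Chrm2, a muscarinic receptor (-2.64 on the log2 scale, 0.931 to 135 over the libraries, lower in replicate 2 in 6 of 7 lines), and Lrrtm4 (-2.15, lower in 7 of 7), both at an adjusted p of 1. The others lower in replicate 2 were Entrez ID 19370, Zkscan7 and Mup19, and those higher were Entrez ID 19715, Depp1, Cracr2b, Cd3d and Ssxb8.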

How the data were processed

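Per the labels and the study's methods, the authors trimmed reads with cutadapt, assigned them to mm9 transcripts of UCSC knownGene with kallisto, combined transcripts by gene with tximport, and scaled the libraries with DESeq2. Versions of these tools are not given in the sources used here. The deposited values are log2(normalized count + 1), and no raw counts were analysed here, so depth is known only as sums of normalized counts. Of 19421 Entrez IDs, 19314 were named by RefSeq and 18870 placed on NCBIM37 (GENCODE M1). Columns without a sample numbered 0. The 14 untreated libraries were fitted with limma 3.58.1 in R 4.3.3 (pseudocount 1, genes reaching 10 normalized counts in 2 libraries or more, 7 residual degrees of freedom, variance trend, Benjamini-Hochberg adjustment), tested on simulated data first. A call needed an adjusted p under 0.05 and a log2 difference of at least 1.5. The Dox libraries were fitted separately (16541 genes). Named genes were the members of the lists, the 20 most abundant and most variable genes, and the 5 largest differences each way per line. The members and lists were chosen with earlier results of these data known. Alternatives were other pseudocounts, filters, scalings, models and leaving out each library. A few genes are not reported here.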

Additional observations from a re-analysis of the deposited data

Results flagged for a closer look

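For 2 genes set apart in untreated iP+A, the Dox libraries of the line lay on the opposite side of the other lines. Golga7b was at 3.88 and 5.97 in untreated iP+A against 7.46 to 45.9 in the other lines (log2 difference -1.91, SE 0.35, adjusted p = 0.0145 by limma), and at 143 and 83.1 with Dox against 3.07 to 69.3 (2.14). Mamld1 was at 6.44 and 4.39 against 18.7 to 26.8 untreated (-1.88, SE 0.26, adjusted p = 0.00514 by limma), and at 50.2 and 39.6 with Dox against 1.72 to 23.8 (2.15). The difference between the untreated and Dox effects was not tested.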

How the results depend on the processing

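Values rest on 2 clones per line and on normalized counts without raw depth. The F-test count of 729 became 2039 with all 28 libraries, 43 without the variance trend and 215 with the replicate number as a block, and leaving out single libraries gave 150 to 1310. The counts of genes that set a line apart moved as follows. With a pseudocount of 5 they were 26 for iG+P and 21 for iP+A. With a filter at 50 normalized counts they were 11 for iG+A, 25 for iG+P and 23 for iP+A. Quantile normalization gave 17 for iG+P. All 28 libraries gave 0 for iPou4f3 and 80 for iG+P. Without the trend they were 0 for iPou4f3, 3 for iG+A and 12 for iG+P. At a log2 difference of at least 1 they were 1 for iGfi1, 2 for iPou4f3, 52 for iG+A, 72 for iG+P and 155 for iP+A. With the replicate block they were 0 for iPou4f3, 3 for iG+A and 10 for iG+P. Leaving out single libraries gave 0 to 1 for iAtoh1, 0 to 1 for iGfi1, 0 to 2 for iPou4f3, 3 to 202 for iG+A, 0 to 219 for iG+P, 19 to 99 for iP+A and 2 to 3 for iGPA. Of 733 alternative values for named genes by line, 577 kept their side of the threshold, 156 lost it and 0 reversed. The causes of these changes were not tested. The paper names its 2 replicates Exp1 and Exp2. Replicate numbers gave no clear pairing here, with deviations correlated over 0.1 in 5 of 21 pairs of lines (range -0.399 to 0.323). Such correlations cannot show whether libraries of the same number shared an experiment.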
